A study of Drosophila melanogaster with 6 samples.

Results

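The genes described here are the 80 cuticle protein genes of Drosophila melanogaster that could be read from the array by name, out of 11982 genes that have a probe set with exactly 1 gene symbol. They were chosen by symbol alone: the Cpr genes (cuticular proteins with the Rebers and Riddiford consensus), the Lcp genes (larval cuticle proteins), the Ccp84A genes, Acp65Aa, Pcp, Edg78E and Edg84A. Where a gene had several probe sets, as Lcp65Aa and Cpr47Ef did, the one with the highest mean over all arrays was taken, so that 82 probe sets gave 80 genes. Of these genes, 7 are larval cuticle proteins by name and 1 is an adult cuticle protein. A further 6 were grouped as pupal type (Pcp, Edg78E, Edg84A and 3 Ccp84A genes). The symbols of the Ccp84A genes name no stage, so that their place in this group is an assignment. The other 66 are Cpr genes whose name gives only the chromosome band. Lcp1, Lcp2, Lcp3 and Lcp4 were not analysed here, and the cytological cluster at band 44 therefore has 0 members.

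The insect cuticle is a layered material of chitin fibres and protein that the epidermis secretes at its apical face and replaces at every moult. Proteins with the Rebers and Riddiford consensus bind chitin through this motif, and the mixture of family members that is secreted helps to set how stiff or flexible a cuticle is. In Drosophila the genes lie in clusters of tandem copies and are transcribed in short waves timed by pulses of the moulting hormone ecdysone, so that larval, pupal and adult cuticles draw on different members of the family.

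The study asked which genes respond in larvae when the acetyltransferase activity of Tip60 is impaired, and compared larvae of 3 genotypes that all carry the ubiquitous driver 337-GAL4 and the endogenous Tip60 gene. The dTip60E431Q larvae carry a UAS transgene of Tip60 with a substitution in its catalytic domain (line B, inserted on chromosome 3), the dTip60WT larvae a UAS transgene of the unchanged Tip60 (line B, on chromosome 2), and the control larvae come from w1118 parents and have no transgene beside the driver. From each genotype 2 pools were made, each of 35 intact larvae kept for 3 days at 25°C, an age that the study places in the second instar, and the RNA of each pool was hybridised to its own Affymetrix Drosophila Genome 2.0 array. Each transgene is represented by a single inserted line, so that an effect of the insertion and one of the protein cannot be told apart. In RNA of whole larvae, fewer epidermal cells and less RNA in each cell cannot be told apart either. The study reports that larvae of this dTip60E431Q line die late in the second instar, and that pools were collected before then. Control and dTip60WT flies had normal phenotypes. Developmental stage was not measured on the pools, so that a difference in stage and one of genotype cannot be told apart.

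The values are the deposited intensities, linear and normalized by the authors across arrays. Tip60 itself had intensities of 5172 and 5464 with dTip60E431Q, 3045 and 2755 with dTip60WT and 30.8 and 29.2 in the control, far above the control in both transgenic genotypes. The ribosomal protein gene RpL32 had a log2 change of -0.09 with dTip60E431Q against the control. Array medians were 51.5 and 51.9 with dTip60E431Q, against 43.8 to 45.2 on the other 4 arrays, and scaling all arrays to a common median shifted every log2 change between dTip60E431Q and the control by -0.23. Intensities of different probe sets are not on a common scale, so that values are compared between arrays for each gene and not between genes.

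Cuticle protein genes moved in both directions in dTip60E431Q larvae, and more of them were higher than lower. Calls required an adjusted p below 0.05 in limma (Benjamini-Hochberg, over the 18769 probe sets of the table that are not controls) together with a difference of 2-fold or more. Against the control, 22 of the 80 genes were called higher and 11 lower with dTip60E431Q, which is 27.5% and 13.8% of the family, beside 9.93% higher and 6.93% lower among all 11982 genes. The median log2 change was 0.75 over the family and 0.03 over all genes, and the changes ran from -3.62 to 5.38. Both dTip60E431Q arrays lay above all 4 other arrays for 46 of the genes and under all 4 for 16, which is 57.5% and 20% of the family, beside 31.0% and 28.1% of all genes. In the other 18 genes at least 1 dTip60E431Q array lay within the range of the rest. The counts leaned on single arrays: with 1 array left out in turn, 9 to 22 genes were called higher and 4 to 11 lower. In all 14 alternative limma fits, which include these, 7 of the rises (Cpr35B, Cpr50Cb, Cpr56F, Cpr62Bb, Cpr65Av, Cpr76Ba and Cpr100A) and 4 of the falls (Acp65Aa, Lcp9, Cpr78E and Cpr49Ah) were called each time.

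**Figure D1:**
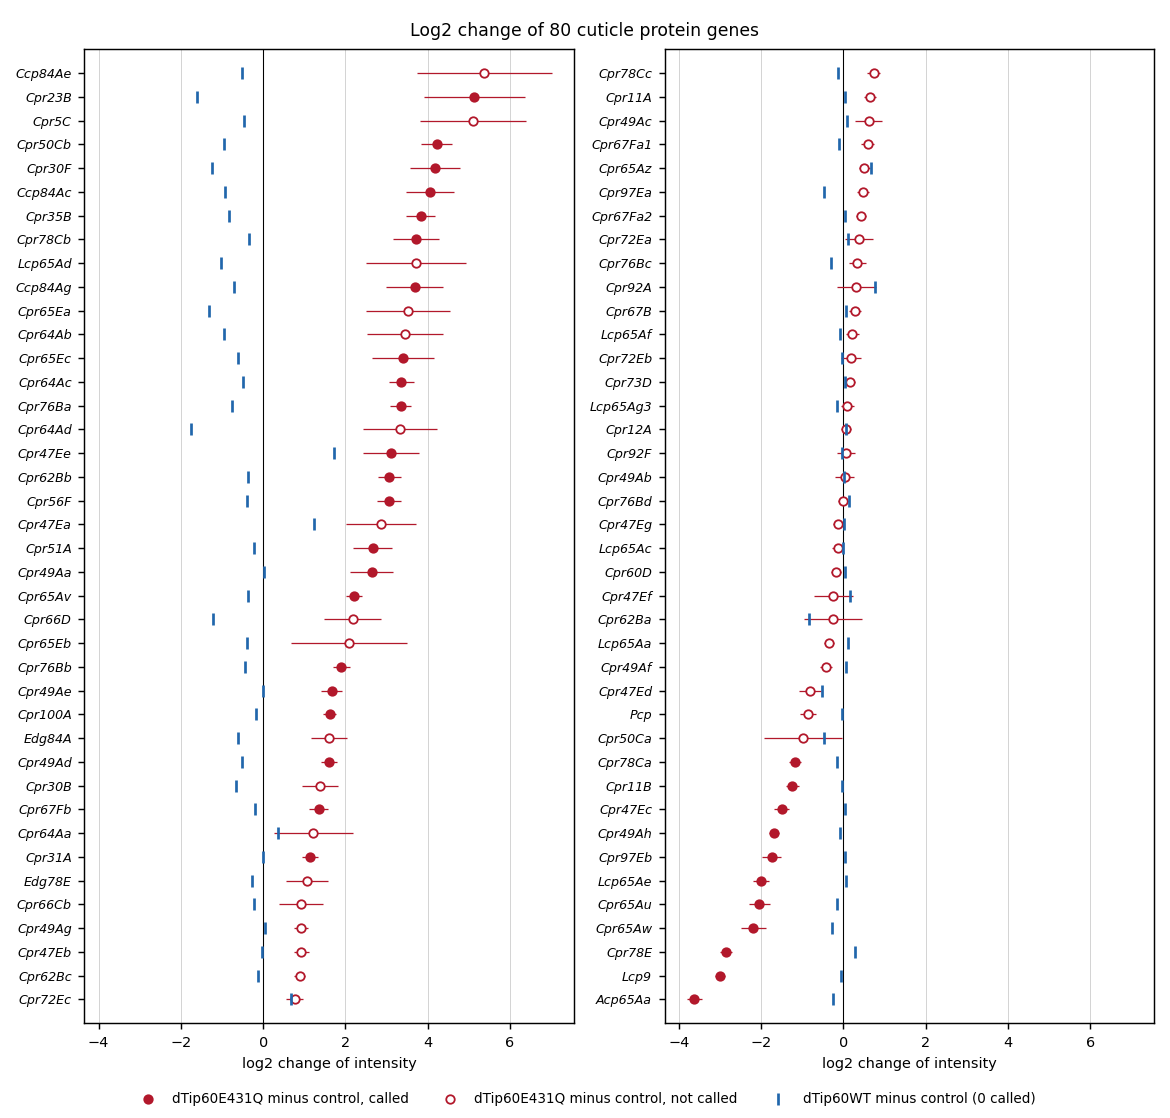
Log2 change of intensity for each of the 80 cuticle protein genes, ordered by the change with dTip60E431Q against the control. Circles show dTip60E431Q minus control with limma's SE (n = 2 arrays a genotype), filled where the gene was called, and blue ticks show dTip60WT minus control. Changes with dTip60E431Q run from -3.62 (Acp65Aa) to 5.38 (Ccp84Ae). With dTip60WT 0 of the 80 genes were called, beside 1 of all 11982 genes.

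Among the larval cuticle proteins, Lcp9 and Lcp65Ae fell. Lcp9, a larval cuticle protein gene that lies outside the 65A cluster, had intensities of 1295 and 1196 with dTip60E431Q, 9678 and 9614 with dTip60WT and 10429 and 9575 in the control. Both dTip60E431Q arrays lay far under the other 4, which were close together, and the log2 change against the control was -3.00 ± 0.12 (limma's SE, also in what follows), an 8.03-fold fall (adjusted p = 0.00422). Lcp65Ae, one of the tandem larval genes at 65A, had 1926 and 1407 with dTip60E431Q, 7300.3 and 6536 with dTip60WT and 6305 and 6882 in the control. Again the dTip60E431Q arrays stood apart from the rest, and the gene fell by 2.00 on the log2 scale (limma, adjusted p = 0.00834).

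None of the other larval genes of the 65A cluster was called. Lcp65Ag3 had intensities of 11864 and 11198 with dTip60E431Q, 10382 and 9031 with dTip60WT and 10008 and 11594 in the control. The arrays of dTip60E431Q overlapped those of the control and lay above those of dTip60WT. Its log2 change was 0.10, with a 95% interval of -0.30 to 0.50. Nearly identical copies of this gene lie beside it, so that its probe set cannot be taken to read that copy alone. Lcp65Af and Lcp65Ac were likewise close to the control, at 0.22 (-0.18 to 0.62) and -0.14 (-0.52 to 0.24). After the arrays were scaled to a common median, the changes of Lcp65Ag3 and Lcp65Af were -0.13 and -0.02, so that neither has a settled direction. Lcp65Aa, with a change of -0.35 (adjusted p = 0.102), had both dTip60E431Q arrays under the other 4 and was not called, and its second probe set gave -0.32.

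Lcp65Ad went the other way without passing the test. Its intensities were 903 and 1809 with dTip60E431Q, 30.3 and 74.8 with dTip60WT and 32.4 and 293 in the control. Both dTip60E431Q arrays lay above the rest, but the control pools were 9.04-fold apart, and the change of 3.71 ± 1.21 had an adjusted p of 0.0984 in limma. Over the 7 larval genes, 0 were called higher and 2 (28.6%) lower, with a median change of -0.14. Over all genes 9.93% were called higher and 6.93% lower.

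The only adult cuticle protein by name, Acp65Aa, had the largest fall of the family in the 6-array fit. It encodes a protein of the adult cuticle and lies in the same 65A cluster as the larval genes. Its intensities were 17.1 and 19.1 with dTip60E431Q, 200.5 and 176 with dTip60WT and 251 and 198 in the control, with no overlap between dTip60E431Q and the other genotypes. The log2 change was -3.62 ± 0.18, a 12.3-fold fall (limma, adjusted p = 0.00550).

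The genes grouped as pupal type pointed mostly upwards, and both calls were Ccp84A genes, which are in this group by assignment. The Ccp84A genes form a tandem cluster on the right arm of chromosome 3. Ccp84Ac had 1629 and 2716 with dTip60E431Q, 56.1 and 78.6 with dTip60WT and 76.5 and 209 in the control. It rose by 4.06 ± 0.58 (limma, adjusted p = 0.0153), and its dTip60E431Q arrays stood well clear of the highest other array, the second control. Ccp84Ag had 198 and 329.8 with dTip60E431Q, 16.5 and 9.09 with dTip60WT and 11.0 and 35.98 in the control and rose by 3.68 ± 0.70 (adjusted p = 0.0279). The call of Ccp84Ag was lost in 7 of 14 alternative fits, among them the replicate block and the fit of only the 4 arrays compared, and that of Ccp84Ac in 3, when control replicate 1 or either dTip60E431Q array was left out. Ccp84Ae had the largest estimate of the family, 5.38 ± 1.64, but was not called (adjusted p = 0.0853). Its intensities were 5939 and 7445 with dTip60E431Q, 44.9 and 280.0 with dTip60WT and 38.8 and 661 in the control, so that in dTip60WT and in the control the second pool was several-fold above the first while the dTip60E431Q pools were far above all 4.

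Edg84A and Edg78E, pupal cuticle genes that were named for their dependence on ecdysone, were dim on every array. Edg84A had 7.67 and 6.95 with dTip60E431Q, 1.01 and 2.41 with dTip60WT and 2.34 and 2.45 in the control, and its change of 1.61 ± 0.44 was not called (limma, adjusted p = 0.0659). Edg78E had 18.1 and 43.3 with dTip60E431Q, 10.1 and 12.1 with dTip60WT and 10.2 and 17.2 in the control, and its change of 1.08 ± 0.51 was not called either (adjusted p = 0.209). Pcp, the pupal cuticle protein whose gene lies within an intron of a purine synthesis gene, pointed down: its intensities were 212 and 231 with dTip60E431Q, 386 and 399.9 with dTip60WT and 473 and 343 in the control. The dTip60E431Q arrays lay under the other 4, and the change of -0.86 ± 0.19 passed the adjusted p (0.0418, limma) but not the 2-fold threshold. Scaled to a common median, Pcp was called lower. Over the 6 genes grouped as pupal type, 2 (33.3%) were called higher and 0 lower, beside 9.93% and 6.93% over all genes. Their median change was 2.65. Both calls were Ccp84A genes, and none of Pcp, Edg78E and Edg84A was called. The larval and pupal-type genes were not set against each other in a test, since genes of a cluster are not replicates of a condition.

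Among the 66 Cpr genes with no stage in their names, 20 (30.3%) were called higher and 8 (12.1%) lower. Over all genes the shares were 9.93% and 6.93%. Cpr50Cb had 1824 and 1932 with dTip60E431Q, 59.99 and 44.8 with dTip60WT and 71.9 and 141 in the control. Its log2 change of 4.22 ± 0.37 was an 18.6-fold rise (limma, adjusted p = 0.00743), and the lowest dTip60E431Q array was 12.9 times the highest of the other 4. Cpr30F had 1670.3 and 2238 with dTip60E431Q, 34.7 and 58.2 with dTip60WT and 62.9 and 182 in the control and rose by 4.18 ± 0.60 (adjusted p = 0.0154). Cpr35B had 839 and 943 with dTip60E431Q, 35.9 and 34.2 with dTip60WT and 44.5 and 88.1 in the control and rose by 3.83 ± 0.35 (adjusted p = 0.00765). In all 3 genes the second control pool was the highest of the arrays without dTip60E431Q.

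Cpr78Cb, Cpr65Ec and Cpr23B rose as well, with control pools 2.96-fold, 4.60-fold and 11.7-fold apart, beside 2.89-fold for Cpr30F. Cpr78Cb had 725 and 936 with dTip60E431Q, 45.4 and 54.02 with dTip60WT and 36.4 and 108 in the control and a change of 3.71 ± 0.56 (limma, adjusted p = 0.0169). Cpr65Ec had 1328 and 1771 with dTip60E431Q, 99.1 and 92.5 with dTip60WT and 67.6 and 311 in the control and a change of 3.40 ± 0.76 (adjusted p = 0.0413). For Cpr23B the intensities were 749.6 and 1087 with dTip60E431Q, 10.4 and 6.94 with dTip60WT and 7.56 and 88.05 in the control, and the change of 5.13 ± 1.22 was just within the threshold (adjusted p = 0.0479). Of these 3 genes, Cpr23B and Cpr65Ec were no longer called with the replicate block, and all 3 were lost when either dTip60E431Q array was left out.

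Genes with higher intensities in the control rose as well. Cpr56F had 3111 and 3933 with dTip60E431Q, 316 and 323 with dTip60WT and 328 and 538 in the control, a change of 3.06 ± 0.29. Cpr51A had 5998 and 7874 with dTip60E431Q, 930.4 and 929.5 with dTip60WT and 686 and 1704 in the control, a change of 2.67 ± 0.47. Its control pools were 2.48-fold apart, and its call was lost in the fit of only the 4 arrays compared. Cpr100A had 3699 and 3624 with dTip60E431Q, 1115 and 1023 with dTip60WT and 1079 and 1324 in the control, a change of 1.62 ± 0.15. None of these genes overlapped between dTip60E431Q and the other genotypes, and their adjusted p in limma were 0.00784, 0.0240 and 0.00798. The remaining rises among these genes were Cpr64Ac (3.36), Cpr76Ba (3.34), Cpr47Ee (3.11), Cpr62Bb (3.07), Cpr49Aa (2.64), Cpr65Av (2.21), Cpr76Bb (1.90), Cpr49Ae (1.66), Cpr49Ad (1.60), Cpr67Fb (1.35) and Cpr31A (1.14). The smallest, Cpr31A, had 1486 and 1705 with dTip60E431Q, against 794 and 664 with dTip60WT and 639.8 and 818 in the control. Its call was lost with the replicate block, after median scaling and when any control or dTip60E431Q array was left out.

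The 8 falls in this group were well separated from the other arrays. Cpr78E had 111 and 114 with dTip60E431Q, 998 and 989 with dTip60WT and 906 and 729 in the control. Its change of -2.86 ± 0.15 was a 7.25-fold fall (limma, adjusted p = 0.00550), with all 4 other arrays far above both dTip60E431Q arrays. Cpr47Ec had 3398 and 4474 with dTip60E431Q, 11716 and 10863 with dTip60WT and 10762 and 11293 in the control and fell 2.83-fold (adjusted p = 0.0107). Cpr49Ah had 48.6 and 45.1 with dTip60E431Q, 144 and 141 with dTip60WT and 157 and 144 in the control, a change of -1.68 ± 0.12 (adjusted p = 0.00602). Cpr65Aw (-2.19), Cpr65Au (-2.05), Cpr97Eb (-1.75), Cpr11B (-1.24) and Cpr78Ca (-1.18) made up the rest, and in each of them both dTip60E431Q arrays lay under the other 4.

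**Figure D2:**
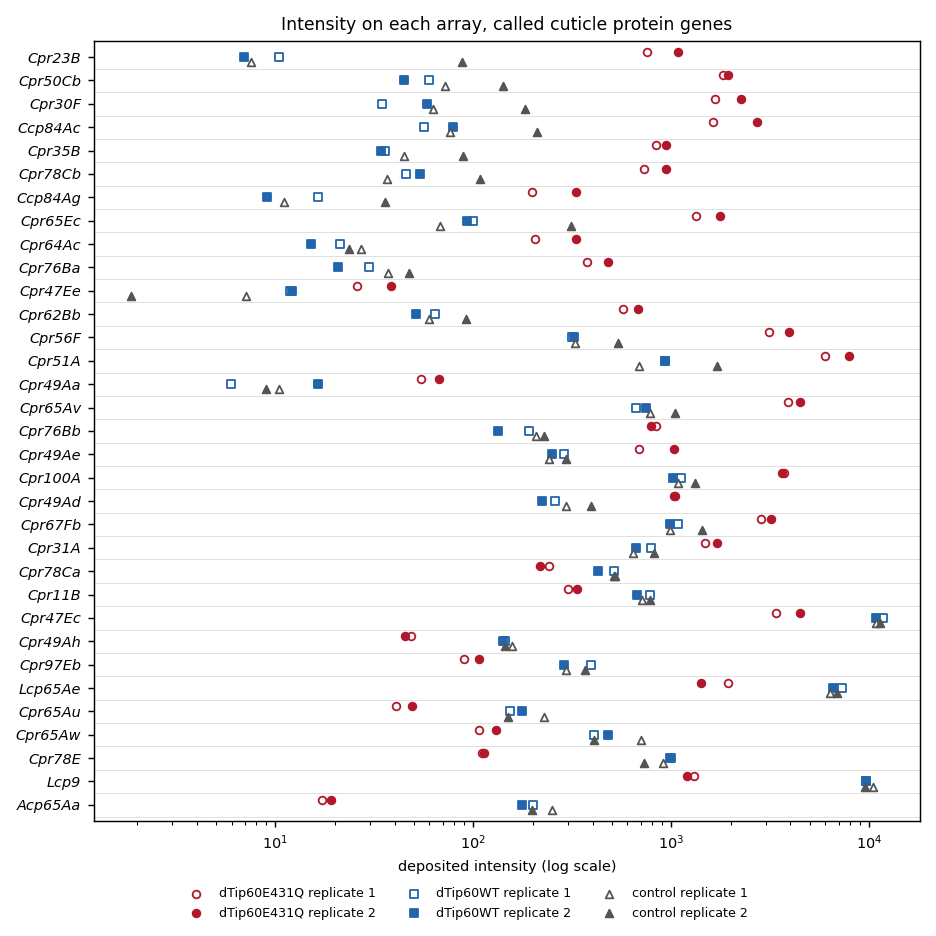
Deposited intensity (log scale) on each of the 6 arrays for the 33 cuticle protein genes called with dTip60E431Q against the control, from the largest rise to the largest fall. Open symbols are replicate 1 and filled symbols replicate 2 of each genotype. The dTip60E431Q arrays lie outside the range of the other 4 in all 33 genes, and in most of the rises control replicate 2 lies to the right of control replicate 1.

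Several genes with estimates as large as these did not pass, and in most of them the control pools disagreed. Cpr5C had 1636 and 2677 with dTip60E431Q, 25.0 and 78.4 with dTip60WT and 19.1 and 196 in the control, with a change of 5.10 ± 1.28 (limma, adjusted p = 0.0548). Cpr64Ad had 9017 and 9762 with dTip60E431Q, 205 and 378 with dTip60WT and 393 and 2244 in the control, with a change of 3.32 ± 0.90 (adjusted p = 0.0656). In both genes the lowest dTip60E431Q array was above the highest of the other arrays, and the second control pool was the highest of those. Cpr65Ea (3.52 ± 1.02), Cpr64Ab (3.45 ± 0.93) and Cpr66D (2.17 ± 0.69) had the same arrangement of arrays. With a pseudocount of 16, or with dim probe sets left out, Ccp84Ae, Cpr5C, Lcp65Ad, Cpr65Ea, Cpr64Ab, Cpr64Ad and Cpr66D were called higher, so that their place beside the threshold depends on the setting. Cpr65Eb differed within dTip60E431Q instead, with 244 and 13.8 with dTip60E431Q, 8.93 and 12.4 with dTip60WT and 12.02 and 15.7 in the control, and its dTip60E431Q arrays fell on both sides of the second control pool. Cpr66Cb had 155 and 52.9 with dTip60E431Q, 40.9 and 41.3 with dTip60WT and 46.2 and 48.9 in the control, where only the first dTip60E431Q pool was clearly above the others. Without the second dTip60E431Q array both were called higher.

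A further group of genes stayed near the control, among them the brightest probe sets of the family. Cpr47Eg had 13719 and 13481 with dTip60E431Q, 15510.3 and 14698 with dTip60WT and 14411 and 15446 in the control, a change of -0.13 with a 95% interval of -0.45 to 0.18. After quantile normalization its change was 0.05, so that its direction is not settled. Cpr60D had 5421 and 5518 with dTip60E431Q, 6611 and 6119 with dTip60WT and 6112 and 6305 in the control and a change of -0.18 (-0.49 to 0.13). At lower intensities, Cpr12A (0.06, -0.26 to 0.39) and Cpr76Bd (-0.0029, -0.37 to 0.37) also had intervals that lie within 1 log2 unit of 0. Smaller rises under the 2-fold threshold passed the adjusted p in Cpr49Ag (0.93), Cpr47Eb (0.93), Cpr62Bc (0.89), Cpr78Cc (0.74) and Cpr11A (0.64). Further genes not called were Cpr47Ea, a dim probe set with 14.8 and 37.7 with dTip60E431Q, 5.33 and 10.9 with dTip60WT and 6.15 and 1.71 in the control and a change of 2.87 ± 0.85, and Cpr49Ac, Cpr67Fa1, Cpr67Fa2, Cpr72Ea, Cpr76Bc, Cpr92A, Cpr67B, Cpr72Eb, Cpr73D, Cpr92F, Cpr49Ab, Cpr49Af and Cpr47Ed, whose changes ran from 0.61 for Cpr49Ac to -0.81 for Cpr47Ed. Cpr30B (1.38), Cpr64Aa (1.22), Cpr72Ec (0.76), Cpr65Az (0.51), Cpr97Ea (0.47), Cpr47Ef (-0.25), Cpr62Ba (-0.26) and Cpr50Ca (-0.99) were not called either.

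By cytological cluster, the genes at 84 all had positive changes while the calls at 65A went both ways. The 4 genes at band 84 had a median change of 3.87, with 2 called higher and 0 lower. The 3 genes at 65E were all positive, with 1 called higher. The 11 genes at 65A had 1 called higher and 4 lower, with a median of -0.14. At band 47, 1 of 7 genes was called higher and 1 lower, with a median of -0.13, and at band 49, 3 of 8 were called higher and 1 lower, with a median of 0.77. The 47 genes outside these clusters had 14 called higher and 5 lower, with a median of 0.76. Over all genes 9.93% were called higher and 6.93% lower. In sets this small a single call moves the share greatly, and at band 47 it was 14.3% each way. No difference between clusters was tested.

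Neighbouring genes could go opposite ways, most plainly at 65A. In chromosomal order the measured genes there are Lcp65Ag3, Cpr65Au, Lcp65Af, Lcp65Ae, Cpr65Av, Cpr65Aw, Lcp65Ad, Lcp65Ac, Lcp65Aa, Acp65Aa and Cpr65Az. Cpr65Av, which has Lcp65Ae on one side and Cpr65Aw on the other with 0 genes between, had 3897 and 4474 with dTip60E431Q, 666 and 743 with dTip60WT and 777 and 1049.7 in the control. It rose by 2.21 ± 0.20 (limma, adjusted p = 0.00759), while its neighbours changed by -2.00 ± 0.20 and -2.19 ± 0.31. For Cpr65Aw the intensities were 107 and 129.9 with dTip60E431Q, 405 and 479.7 with dTip60WT and 706 and 408 in the control (adjusted p = 0.0154). Cpr65Au, beside Lcp65Ag3, had 40.5 and 48.9 with dTip60E431Q, 153 and 176 with dTip60WT and 226 and 149 in the control and a change of -2.05 ± 0.26 (adjusted p = 0.0117).

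The same was seen at 78C, where Cpr78Cb rose while the adjoining Cpr78Ca, with 241 and 218 with dTip60E431Q, 515 and 426 with dTip60WT and 516 and 523 in the control, fell by 1.18 on the log2 scale (limma, adjusted p = 0.0121). At band 49 the changes ran from 2.64 for Cpr49Aa, with 54.3 and 67.05 with dTip60E431Q, 5.96 and 16.5 with dTip60WT and 10.4 and 8.99 in the control, to -1.68 for Cpr49Ah. At band 47 the highest change was 3.11 for Cpr47Ee, and the lowest was that of Cpr47Ec. Cpr47Ee was dim, with 25.8 and 38.5 with dTip60E431Q, 11.8 and 12.1 with dTip60WT and 7.13 and 1.87 in the control, and its control pools were the lowest arrays. With dim probe sets left out, neither Cpr47Ee nor Cpr49Aa was called. Of 33 pairs of family members with 0 protein-coding genes between them, 14 had changes of opposite sign. Some of these had a change near 0, as in Cpr76Bc (0.34) and Cpr76Bd (-0.0029). These pairs were not compared with pairs of genes that are not neighbours, and 58 of the 80 genes had positive changes. Opposite calls were found in 3 of the 33 pairs, those at 65A and 78C. By contrast the 64A genes Cpr64Ab, Cpr64Ac and Cpr64Ad lie side by side and had changes of 3.45 ± 0.93, 3.36 ± 0.31 and 3.32 ± 0.90. Only Cpr64Ac was called. Against dTip60WT their changes were less alike, at 4.39, 3.86 and 5.08. The dim Cpr64Aa, with 0 genes between it and Cpr64Ab, had a change of 1.22 ± 0.95 against the control.

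**Figure D3:**
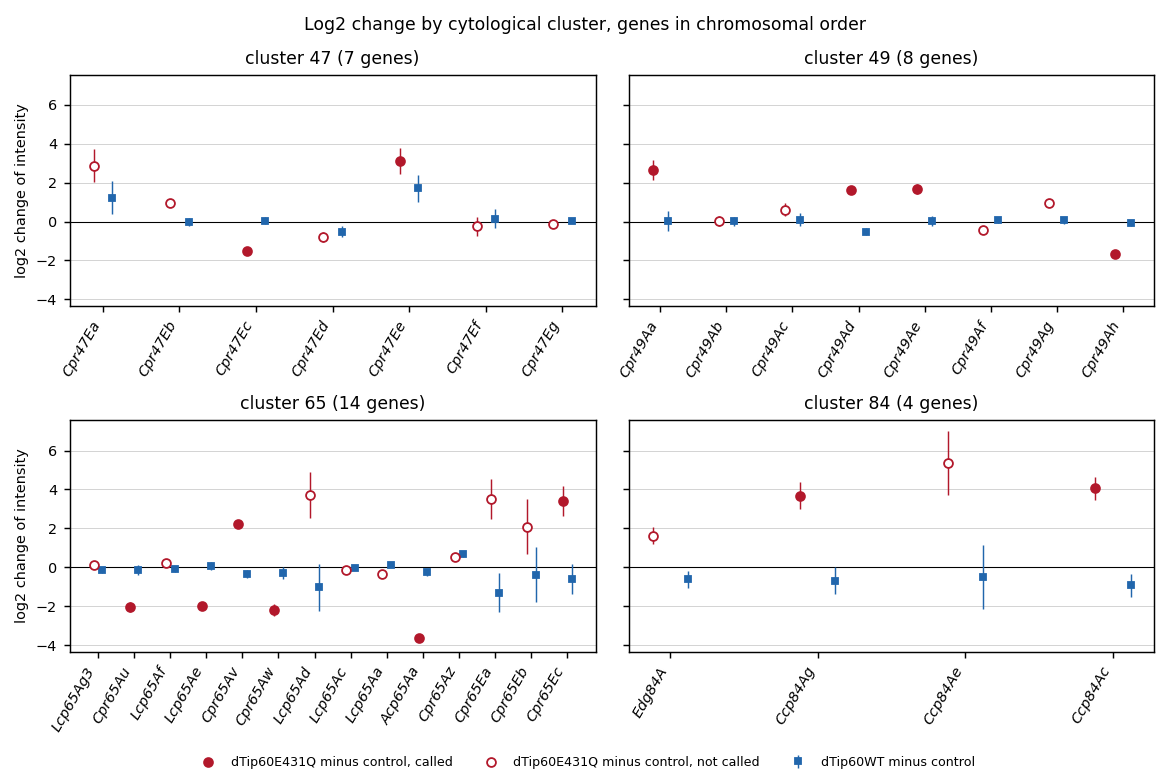
Log2 change of intensity in the cytological clusters 47, 49, 65 and 84, with genes in chromosomal order and limma's SE as bars (n = 2 arrays a genotype). Circles are dTip60E431Q minus control, filled where called, and squares are dTip60WT minus control. All 4 genes at 84 lie above 0, while at 65A a called rise lies between called falls, Cpr65Av (2.21) between Lcp65Ae (-2.00) and Cpr65Aw (-2.19).

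No cuticle gene was called with the transgene of unchanged Tip60, and of all 11982 genes only 1 was, Tip60 itself. A count of 0 therefore does not set the family apart from the rest of the array. With dTip60WT against the control, 0 of the 80 genes were called in limma, beside 0.00835% of all genes, and the methods' t-test called 0 as well. At an unadjusted p below 0.05 in limma there were 4 of the 80 genes, 2 higher and 2 lower, beside 521 of all 11982 (4.35%). These were Cpr65Az (log2 change 0.66, unadjusted p = 0.00611 and adjusted p = 0.611 in limma), Cpr72Ec (0.68), Cpr97Ea (-0.48) and Cpr76Ba (-0.76). Cpr65Az was dim throughout, with 9.51 and 10.96 with dTip60E431Q, 11.4 and 11.3 with dTip60WT and 6.88 and 7.47 in the control, and both transgenes lay above the control in it. The median change over the family was -0.14, against -0.0042 over all genes. For the genes that fell most with dTip60E431Q the 95% intervals of the change with dTip60WT were -0.38 to 0.28 for Lcp9, -0.12 to 0.70 for Cpr78E and -0.73 to 0.23 for Acp65Aa.

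Set against dTip60WT, dTip60E431Q gave 29 genes called higher and 11 lower, beside 10.5% and 6.92% of all genes, with a median change of 0.87. This comparison shares the dTip60E431Q arrays with the one against the control and is not independent of it. All 11 genes called lower against the control were called lower here, and 21 of the 22 called higher were called higher here. Cpr47Ee was the exception, with a change of 1.40 ± 0.69 (limma, adjusted p = 0.223). Another 8 genes were called higher only against dTip60WT: Cpr5C, Cpr65Ea, Cpr64Ab, Cpr64Ad, Cpr66D, Cpr62Bc, Cpr30B and Edg84A. Each lost this call when either dTip60E431Q array was left out. The dim Cpr30B and Edg84A also lost it with the replicate block, the fit of only the 4 arrays compared and the pseudocount. Cpr5C, Cpr65Ea, Cpr64Ab and Cpr66D lost it with the trend and robust options, and Cpr62Bc after median scaling. Cpr64Ad had a change of 5.08 ± 0.90 (limma, adjusted p = 0.0236) against dTip60WT and of 3.32 ± 0.90 against the control. Its dTip60WT pools were 1.85-fold apart and its control pools 5.72-fold. The fit shares 1 spread over all genotypes, so that the SE is the same in both comparisons. They differ in the size of the change.

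In a part of the family the control pools were far apart, mostly in one direction. Control duplicates were at least 2-fold apart in 16 of the 80 genes, 20% of the family beside 8.06% of all genes, and replicate 2 was the higher in 14 of the 16. The 4 genes furthest apart were Ccp84Ae, Cpr23B, Cpr5C and Lcp65Ad, all higher in control replicate 2. The dTip60WT duplicates were at least 2-fold apart in 10 genes (12.5%, beside 7.27% of all genes), with replicate 2 the higher in 9, and the dTip60E431Q duplicates in 7 (8.75%, beside 7.39%).

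Genes that were higher in control replicate 2 than in replicate 1 were mostly higher with dTip60E431Q as well. Across the 80 genes, the log2 difference of control replicate 2 minus replicate 1 and the change with dTip60E431Q against dTip60WT, which use no array in common, had Pearson's r = 0.73 and Spearman's rho = 0.65, a description with no test since the genes share arrays. Across all 11982 genes r was 0.25 and rho 0.17. Of the 29 genes called higher against dTip60WT, 27 had control replicate 2 above replicate 1 (93.1%, beside 72.5% of all genes called higher), 12 of them at least 2-fold. Of the 11 called lower, 5 did (45.5%, beside 56.8% of all genes called lower). The difference between the dTip60WT pools, set against that between the control pools, had r = 0.26 and rho = 0.05 across the family. Set against the change with dTip60E431Q against the control, with which it shares no array, it had r = 0.30 and rho = 0.19. Across all genes these were 0.04 and 0.04, so that the likeness was weaker than for the control pools. What set the control pools apart was not tested. With control replicate 2 left out, 22 genes were called higher and 6 lower against the control, 17 and 6 of them shared with the calls on all arrays, and with control replicate 1 left out, 13 and 4, of which 12 and 4 were shared. All 33 called genes kept their direction whichever array was left out. This could not have come out otherwise, since in each of them both dTip60E431Q arrays lay outside the range of the other 4.

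**Figure D4:**
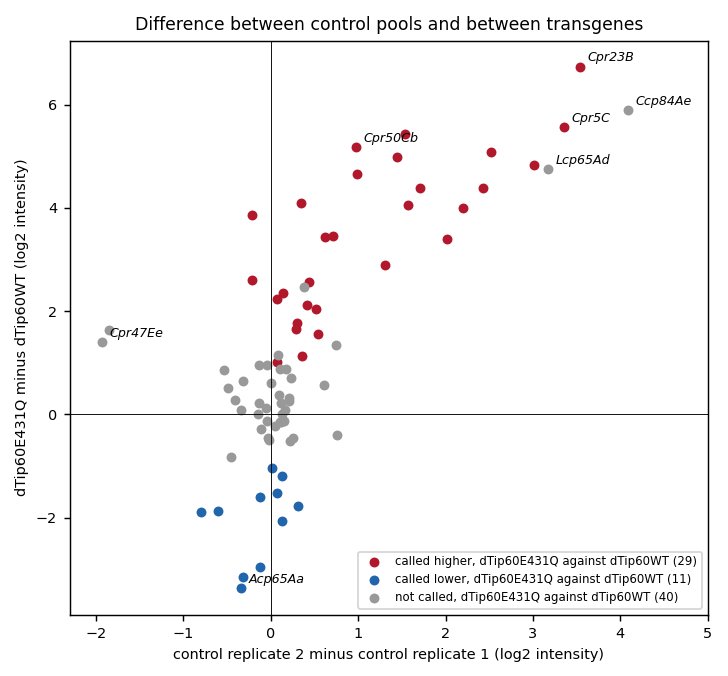
Difference between the control pools (replicate 2 minus replicate 1, log2 intensity) against the difference of dTip60E431Q minus dTip60WT (log2 intensity) for the 80 cuticle protein genes, 1 point a gene. The axes use no array in common. Points for genes called higher lie mostly right of 0, up to Cpr23B at 6.73, while the 11 genes called lower lie within -0.79 and 0.32 on the horizontal axis.

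Other genes that build or time the cuticle were read from lists chosen by function. Of 29 measured genes of chitin assembly and turnover, 7 (24.1%) were called higher and 0 lower with dTip60E431Q against the control, with a median log2 change of 0.43. Over all genes 9.93% were called higher and 6.93% lower, which is the background for each list here. The chitinase gene Cht5, whose product degrades chitin at the moult, had 592 and 553 with dTip60E431Q, 25.6 and 25.3 with dTip60WT and 35.5 and 37.8 in the control and a change of 3.97 ± 0.12 (limma, adjusted p = 0.00400). Cht4, another chitinase gene, and Cda5, a chitin deacetylase gene, rose by 2.52 and 1.60. Of 8 genes of tanning, the cross-linking and darkening of cuticle, 4 were called higher and 0 lower, with a median of 1.63. The list as first set held Lac as well, which encodes a junction protein, and with it the median of 9 genes was 1.09. Lac was taken out after the data had been seen. Ddc, the dopa decarboxylase that makes dopamine for tanning, had 1463 and 1989.7 with dTip60E431Q, 114 and 90.5 with dTip60WT and 92.5 and 162 in the control and rose by 3.80 ± 0.35 (adjusted p = 0.00759), and the pigmentation genes e and y rose by 2.17 and 5.15. Of 24 genes of the Tweedle family, whose products are another class of cuticle proteins, 8 (33.3%) were called higher and 1 (4.17%), TwdlO, lower, with a median of 3.74. Pools of a genotype often disagreed in this family. Its control duplicates were at least 2-fold apart in 17 genes (70.8%, beside 8.06% of all genes), with replicate 2 the higher in 16. The dTip60E431Q duplicates were so in 8 (33.3%, beside 7.39% of all genes). TwdlH and TwdlN rose by 5.73 and 2.85, and TwdlO fell by 1.54 on the log2 scale. The 15 genes of the moulting hormone response had 1 called higher and 1 lower, 6.67% each way and so near the shares over all genes, with a median of 0.18. ImpE2, an ecdysone-inducible gene, had 414 and 178 with dTip60E431Q, 25.7 and 35.2 with dTip60WT and 31.5 and 28.9 in the control and rose by 3.17 ± 0.45 (adjusted p = 0.0153). The transcription factor gene br, which acts at the onset of metamorphosis, had 125 and 117 with dTip60E431Q, 367 and 354 with dTip60WT and 505 and 343 in the control and fell by 1.78 on the log2 scale (adjusted p = 0.0114). usp, which encodes the partner of the ecdysone receptor, had a change of -0.89 and was not called.

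Markers of other tissues moved with the groups to different degrees. The 5 body muscle genes, with summed intensities of 31502 and 32098 with dTip60E431Q, 43046 and 41417 with dTip60WT and 41437 and 42998 in the control, and the 4 hemocyte genes, with 5815 and 6338 with dTip60E431Q, 6898 and 5702 with dTip60WT and 6322 and 6772 in the control, had 0 called. Of 4 fat body genes 2 (Lsp2 and Fbp2) were called lower, with sums of 11255 and 9700.0 with dTip60E431Q, 34511 and 33618 with dTip60WT and 39439 and 33122 in the control. Of 5 midgut genes 2 (Mal-A1 and Mal-A4) were called higher, with sums of 29340.0 and 29822 with dTip60E431Q, 31879 and 35105 with dTip60WT and 31025 and 34453 in the control. The 6 salivary gland glue genes, which switch on late in larval life, had 0 called and differed between pools of a genotype, with sums of 271 and 222 with dTip60E431Q, 230.0 and 1449 with dTip60WT and 1165 and 202 in the control. The glue genes were thus high in control replicate 1 and dTip60WT replicate 2, while cuticle genes with pools at least 2-fold apart were mostly higher in control replicate 2 and in dTip60WT replicate 2. Of 3 genes of the epidermal apical membrane and junctions, 1 (dyl) was called higher, with sums of 1576 and 1518 with dTip60E431Q, 1053 and 916 with dTip60WT and 1036 and 1016 in the control. The log2 changes of the other genes with the smallest p in each marker list were -0.63 for TpnC73F, -0.49 for Tm2 and -0.33 for up in muscle, -0.11 for vkg, -0.15 for Hml and -0.05 for Pxn in hemocytes, -0.42 for apolpp in fat body, -0.67 for Jon65Aiii in midgut, -0.98 for Sgs5, -3.04 for Sgs7 and -3.17 for Sgs3 among the glue genes, and 0.41 for pio and 0.06 for cv-c in the epidermis, and 0 of these were called, TpnC73F, Tm2 and Jon65Aiii having passed the adjusted p but not the 2-fold threshold. Those of the called markers were -6.73 for Lsp2, -8.16 for Fbp2, 1.33 for Mal-A1, 1.59 for Mal-A4 and 3.79 for dyl. The part of any of these tissues in the changes of the cuticle genes was not tested.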

How the data were processed

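RNA of whole larvae was hybridised to Affymetrix Drosophila Genome 2.0 arrays, with 2 arrays per genotype and a separate pool of larvae on each. Per the methods, image files came from GCOS and dChip then supplied normalized, model-based expression indexes; the deposited linear intensities, from 0.69 to 18115, were taken to be these. Software versions, the baseline array and the probe model are not given in the sources used here. The 183 control probe sets were dropped, and no filter or pseudocount was applied to the remaining 18769.

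Symbols came from the platform annotation, in which 13647 probe sets carry 1 symbol, 402 carry more and 4720 carry none; 6 probe sets of the family with several symbols were not used. Gene order came from the RefSeq gene table (Release 6 assembly), which held all 80 genes, and no coordinates are printed since the array's build is not given in the sources used here. Clusters follow the band in the symbol. Larval genes are those whose symbols start with Lcp. The pupal-type group holds Pcp, Edg78E, Edg84A and, by assignment, the genes whose symbols start with Ccp84A.

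Log2 intensities were fitted in limma 3.58.1 (R 4.3.3) with lmFit and eBayes, 1 mean per genotype over all 6 arrays (3 residual degrees of freedom, prior 1.43, median residual SD 0.24). The code was tested on simulated data. The small number of arrays limits the precision, and the intervals given are 95% intervals of this fit. The methods' t-test was run as Welch's test on linear values, with their thresholds of 0.05 for p and 2-fold. The confidence bound of the fold change that the methods also required was not applied, so that the filter is not the study's in full. Alternatives were a replicate block, a fit of only the 4 arrays compared, eBayes with trend and robust options (statmod 1.5.0), median scaling, quantile normalization, a pseudocount of 16, probe sets under the 40th percentile left out, no fold threshold, limma's unadjusted p, the methods' t-test, averaged probe sets, and each array left out in turn.

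Named by rule were Lcp9, Acp65Aa, Pcp, Edg78E and Edg84A, the 8 largest rises and falls among called genes above the median intensity of 46.5, the 3 brightest in each genotype, the 4 with the smallest p with dTip60WT, the 4 with the largest difference between control pools, the extremes of each cluster, Tip60, RpL32 and the 3 smallest p of each list; others were named with their values known. The genes, lists and tests were chosen with earlier results of these data known. A planned class by consensus type was not made, as no protein sequences were used here. Plots were made in matplotlib 3.10.9.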

Additional observations from a re-analysis of the deposited data

How the results depend on the processing

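Shares over all genes were counted for the 6-array fit only. Counts under the other settings therefore describe the family alone and give no comparison with the rest of the array. By the methods' t-test at its unadjusted threshold, 12 cuticle genes were higher and 6 lower with dTip60E431Q against the control. Against dTip60WT, 14 were higher and 7 lower. After Benjamini-Hochberg adjustment the t-test called 0 in each direction of either comparison, with 2 arrays a group. With 1 array left out in turn, 9 to 22 genes were called higher and 4 to 11 lower with dTip60E431Q against the control, and 10 to 29 higher and 4 to 11 lower against dTip60WT. Against the control, leaving out a dTip60E431Q array moved the rises most, to 9 without replicate 1 and 10 without replicate 2; against dTip60WT, leaving out a dTip60WT array did, to 10 and 11, and the falls were fewest without control replicate 1 (4) and without dTip60WT replicate 1 (4, against dTip60WT). With the replicate block, 18 genes were called higher and 11 lower against the control, and 25 higher and 10 lower against dTip60WT, and 0 with dTip60WT against the control. Over all 18769 probe sets tested, replicate numbers did not pair the pools (correlations of deviations -0.0125, -0.0116 and -0.00735). Across the family, the differences between duplicates in the control and in dTip60WT had r = 0.26 and rho = 0.05. The pseudocount gave 30 genes called higher. The median change of 0.75 stayed positive under every alternative run and was 0.52 after median scaling, which turned Lcp65Ag3 to -0.13 and Lcp65Af to -0.016; quantile normalization turned Cpr47Eg to 0.053, and leaving out arrays moved Lcp65Ag3 between -0.0084 and 0.20. Over 442 alternatives for 32 named genes, 368 kept direction and side of the threshold, 55 lost the call, 15 gained it and these 4 changed sign. With 2 arrays a genotype, changes of dim genes such as Edg84A, Cpr47Ee and Cpr65Az rest on intensities near the bottom of the scale.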

Other observations

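Several family members stayed dim in all genotypes, and their changes were small beside their spread. Cpr62Ba had intensities of 13.8 and 7.51 with dTip60E431Q, 12.7 and 3.70 with dTip60WT and 9.87 and 15.1 in the control. Cpr50Ca had 7.78 and 1.64 with dTip60E431Q, 2.90 and 9.02 with dTip60WT and 6.57 and 7.63 in the control. Cpr64Aa had 11.4 and 15.6 with dTip60E431Q, 2.85 and 18.8 with dTip60WT and 6.90 and 4.75 in the control. In each of them the arrays of dTip60E431Q and the control overlapped or the pools of a genotype were several-fold apart. The 2 probe sets of Cpr47Ef disagreed, at a log2 change of -0.25 for the brighter and 1.15 for the other, and neither was called. All 4 were chosen with their values in view.

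By chromosome, 11 of 49 family members on chromosome 3, which carries the dTip60E431Q insertion, were called higher (22.4%) and 7 lower (14.3%) with dTip60E431Q against the control, beside 9.93% higher and 6.93% lower among all genes. On chromosome 2 there were 11 called higher (40.7%) and 3 lower (11.1%) of 27, and on the X chromosome 0 higher and 1 lower (Cpr11B) of 4. No difference between chromosomes was tested.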
